A study of Mus musculus with 16 samples.

Results

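The replication-dependent core histone genes are the small, intronless genes of H2A, H2B, H3 and H4 that lie in clusters and are switched on together in S phase. They were taken from the table by name, either the current symbols (H2ac, H2bc, H3c or H4c with a number) or the older Hist names of the same families that the table still carries. This rule took 60 of the 55291 genes listed: 51 under a current name and 9 under an older one. They comprise 19 H2A, 17 H2B, 12 H3 and 12 H4 genes.

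The RNA came from E14Tg2a mouse embryonic stem cells of the 129/Ola strain, grown without feeder cells. In all of them the endogenous CTCF, the zinc finger protein that anchors chromatin loops, carried an auxin-inducible degron, and a doxycycline-inducible transgene supplied CTCF instead. The transgene was wild type (WT) or carried R342C, K365T or Q418R, and each of the 4 lines stands for its genotype alone, so line and genotype cannot be told apart. The cells of all 16 libraries received indole-3-acetic acid (500 µM), which removes the degron-tagged protein, and doxycycline (1 µg/ml), for 2 days. In each line 1 group was kept in serum medium with leukaemia inhibitory factor (LIF), CHIR99021 (3 µM) and PD0325901 (1 µM), and 1 group spent 3 days in that medium without these additions, a protocol for exit from pluripotency called no LIF here. The 8 groups had 2 libraries each, made from total RNA after removal of ribosomal RNA. That matters for these genes, because their mRNAs lack poly(A) tails and are missed by poly(A) selection.

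Replication-dependent histone mRNAs are mRNAs of animals that end in a conserved stem-loop and not in a poly(A) tail. The stem-loop binding protein (SLBP) holds this hairpin, the U7 small nuclear ribonucleoprotein guides the cut behind it, and the mRNA is destroyed when DNA synthesis stops. NPAT, activated by cyclin E and CDK2, drives transcription in nuclear histone locus bodies. Embryonic stem cells, which spend much of their short cycle in S phase, carry large amounts of these mRNAs.

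Of the 60 genes, 49 lie in the large Hist1 cluster of chromosome 13, between positions 21715711 and 23934913 of the mouse build mm10, and 10 in the Hist2 cluster of chromosome 3, between 96219885 and 96270192. The remaining one, Hist1h2al (chr13:51202727-51203065), lies outside both and is annotated as a processed pseudogene by GENCODE. The stem-loop was found in the annotated transcripts of 39 of the 60 genes: 10 of 19 H2A, 9 of 17 H2B, 9 of 12 H3 and 11 of 12 H4 genes. It began 21 to 58 bases after the stop codon, with a median of 31. Of the 21 transcripts without it, 14 are annotated to end within 37 bases of the stop codon, so the annotation stops short of where a hairpin would lie. The hairpins are shown because they are the element that sets these mRNAs apart and because they differ by class. Each is written 5′ to 3′ as DNA from the GENCODE transcripts, with the 16 bases of stem and loop in capitals and 5 bases on either side in lower case.

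H2ac4: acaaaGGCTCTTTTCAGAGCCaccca

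H2bc8: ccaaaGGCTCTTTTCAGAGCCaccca

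H2bc3: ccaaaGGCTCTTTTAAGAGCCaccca

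H3c6: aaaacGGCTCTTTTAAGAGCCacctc

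H3c8: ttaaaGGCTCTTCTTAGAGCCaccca

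H4c8: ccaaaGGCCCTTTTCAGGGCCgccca

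H4c9: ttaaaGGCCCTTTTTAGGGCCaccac

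H4c2: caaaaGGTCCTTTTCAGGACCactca

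The core of H2ac4 and H2bc8 was the most frequent, with 21 genes, all of H2A, H2B or H3. The core of H4c8 occurred in 6 genes, all of H4, and that of H4c9 in 2 (H4c14 and H4c9). The core of H4c2 was shared with H4c11. The core with AA after the run of T, as in H2bc3 and H3c6, occurred in 5 genes (H2bc12, H2bc3, H3c3, H3c6 and H3c7). Every H2A, H2B and H3 core thus opened with GGCTC, and every H4 core with GGCCC or GGTCC.

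The libraries held 19721363 to 31935381 reads assigned to genes, recovered from the normalised counts. The 60 genes took 0.392% to 0.563% of the normalised counts, and 1.948% to 3.094% of the TPM (transcript abundance per length, scaled to the same total in each library). Ctcf transcript, which may include that of the transgene, ranged from 5292 to 8585 normalised counts with a median of 6495, so no line lacked it. All 8 pluripotency markers (such as Pou5f1 and Nanog) were present in every library, and 8 of 8 fell without LIF in R342C and 7 of 8 in the other lines. Of 8 fibroblast markers, 5 could be tested, and 4 of them rose without LIF in Q418R and 3 in each of the other lines. Another of the 5, Pdgfra, fell in every line (log2 change -1.89 in WT, -0.98 in R342C, -1.30 in K365T and -0.91 in Q418R). The summed level of the fibroblast markers ranged from 266 to 496 normalised counts over the libraries with LIF and from 839 to 1377 over those without. Lum and Postn were at 0 in 12 and 13 libraries. Whether fibroblast-like cells were present, and their part in the histone levels, was not tested. The second R342C library without LIF stood apart in histone levels: its 53 tested members had a median log2 difference of 0.37 from the first, against 0.03 over all genes. In K365T without LIF the H2A genes differed between the libraries by a median of -0.82, second minus first. Nothing in the labels says that the 2 libraries of a group came from separate cultures, so p-values measure the spread between these libraries, which may be technical.

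Of the 60 genes, 53 had a mean of at least 10 normalised counts and were tested: 15 H2A, 16 H2B, 11 H3 and 11 H4 genes. The 7 others were H2ac14, H2ac18, H3c14, Hist1h2ao, Hist1h2ap, Hist1h2br and Hist1h4m, of which H2ac18 and H3c14 were listed at 0 in all 16 libraries. All 150-base stretches of the H3c14 transcript occur also in other annotated genes (H3c13, H3c15 and Gm20634), and all of the H2ac19 transcript in H2ac18 or Gm20634, so counts of such copies cannot be assigned with certainty.

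Levels per length differed widely within each class. H4 genes summed to 10938 TPM on average over the 16 libraries, H2B genes to 5416, H3 genes to 5074 and H2A genes to 2775. The 3 highest genes of a class held much of its level: 59.9% in H2A, 52.5% in H2B, 42.3% in H3 and 51.1% in H4. The median gene stood at 70.2 TPM in H2A, 191 in H2B, 449 in H3 and 871 in H4. The sums are lowered where an annotated transcript runs far past the stem-loop, as in 13 of the 39 genes with one, since TPM divides by that length. How reads shared between copies were counted is not given, so the sums and the order of genes may also depend on it.

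The highest gene overall was H4c12, which encodes histone H4 as every H4 gene does. It stood between 1790 and 2773 TPM with a median of 2393. H4c8 ranged from 1292 to 2014 TPM with a median of 1844. H4c1 ranged from 719 in the second WT library without LIF to 1987 in the second K365T library without LIF, with a median of 1563. The ranges of these 3 genes overlap, so their order is that of their medians only.

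In H2B the highest gene was H2bc8 at a mean of 1276 TPM. Its WT libraries were at 1498 and 1424 TPM with LIF and 1482 and 1272 without. K365T stood at 1086 and 945 with LIF and 1101 and 1142 without. The ranges of WT and K365T did not overlap for H2bc8 in either medium. H2bc3 ranged from 545 to 1066 TPM (median 788) and H2bc13 from 551 to 1002 (median 755), so the order of this pair is within their spread.

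In H3, H3c6 led with 657 to 1436 TPM and a median of 909. H3c13 ranged from 417 to 1012 TPM (median 610), and its 8 libraries without LIF, from 611 up, were narrowly above all with LIF, which reached 610. On the normalised counts used for the tests the media overlapped across lines for H3c13. Its rise was called by limma on group means, described below, in R342C and K365T only. H3c8 ranged from 357 TPM in the second WT library without LIF to 1071 in the second R342C library without LIF. In H2A the top was Hist1h2al, between 578 and 1028 TPM (median 686), although its annotation is that of a processed pseudogene. H2ac15 ranged from 286 to 830 TPM (median 564), with both extremes in the R342C libraries without LIF, and H2ac4 from 218 to 554 (median 337). None of the 190 stretches of 150 bases in the Hist1h2al transcript occurs in another annotated gene.

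**Figure D1:**
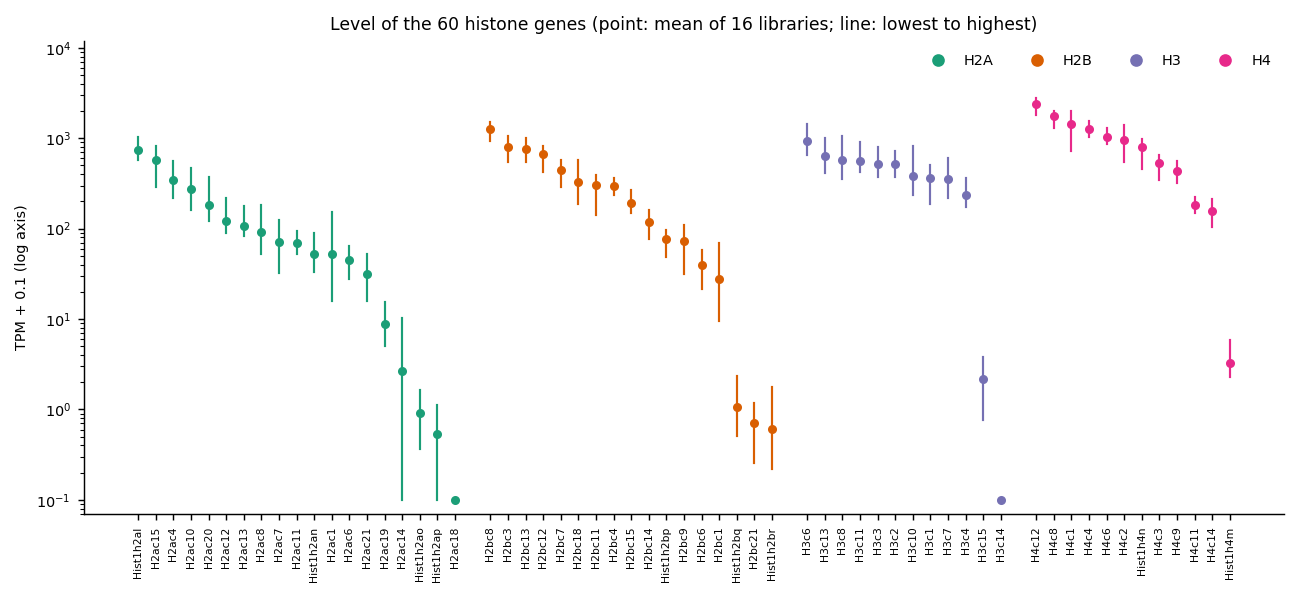
Mean TPM of each of the 60 genes over 16 libraries, on a log axis, with the lowest and highest library as a bar, by class. A few genes of each class stand near the top, led by H4c12 at 2377 TPM, while others lie orders of magnitude lower.

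The first question of the design is how the lines responded to the loss of LIF. In the comparisons below a log2 change is the difference between group means of log2(normalised count + 4), which understates the change of low genes, and a gene rose or fell if limma's adjusted p over 17757 genes was below 0.05. Fewer cells in S phase and less histone RNA per cell cannot be told apart in such bulk samples. Of all genes tested, 48.8% were called in WT, 46.5% in Q418R, 44.7% in K365T and 47.2% in R342C, and 1 to 7 of the 53 members were.

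In WT, 1 of 53 members fell and none rose, with 24.9% of all genes lower and 23.8% higher (48.8% called). The gene that fell was H3c2, an H3 gene of the Hist1 cluster. It stood at 3125 and 3041 normalised counts with LIF and at 2063 and 2135 without. The groups did not overlap, and the log2 change was -0.55 (SE 0.19, adjusted p = 0.0237). This call was lost whichever of the 4 libraries was left out (adjusted p 0.0637 to 0.0951). The median change of the 53 was -0.12, and 12 of 53 were positive, against a median of -0.01 and 49.4% positive over all genes. By class the medians were -0.12 in H2A, -0.03 in H2B, -0.37 in H3 and -0.13 in H4. Same-numbered libraries of a line deviated together in both media, so the replicate number was also fitted as a block within each line. This alternative was added after the data were seen, and the labels do not give such a pairing. With this block 9 members were called in WT (56.3% of all genes): H2bc6 rose, and 8 fell, which were H3c2, H3c4, H3c7, H3c8, H2bc9, H2bc11, H4c1 and H4c8.

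In R342C, 4 members rose and none fell, with 23.3% of all genes higher and 23.9% lower (47.2% called). H2bc6, an H2B gene, stood at 1084 and 971 with LIF and at 1593 and 1802 without, a log2 change of 0.72 (SE 0.16, adjusted p = 0.00186). It kept this call without each of the 4 libraries (log2 0.63 to 0.81). H3c13, an H3 gene of the Hist2 cluster, rose by 0.69 (SE 0.20, adjusted p = 0.0102), from 1599 and 2207 to 2440 and 3783. The groups did not overlap, but without the second R342C library without LIF the change was 0.38 (adjusted p = 0.16), and without the first with LIF 0.46 (adjusted p = 0.137). H3c15, a low-level H3 gene, rose by 1.10 (adjusted p = 0.0439), from 6.29 and 14.9 to 23.2 and 28.7. H4c9 rose by 0.32 (adjusted p = 0.0391). These calls were lost without 3 of the 4 libraries for H3c15 and all 4 for H4c9 (highest adjusted p 0.33 and 0.168). The median change of all 53 was 0.16, with 40 positive. It was 0.36 without the first library of R342C without LIF, and -0.01 without the second, so the direction of the median rests on that library. Without the second, 1 member rose (H2bc6) and 4 fell, which were the H2A gene H2ac15 (-1.28, adjusted p = 0.00231) and the H3 genes H3c2, H3c7 and H3c8. The H3 genes then had a median of -0.34, with 2 of 11 positive. With the block within the line 7 members rose and none fell (54% of all genes called), H2bc9, H2bc13 and H2bc18 beside the 4 named.

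In K365T, 7 members rose and none fell, with 21.6% of all genes higher and 23% lower (44.7% called). They were the H2A genes H2ac1 and Hist1h2an, the H2B genes H2bc1, H2bc6, H2bc7 and Hist1h2bp, and the H3 gene H3c13. H2bc6 stood at 916 and 719 with LIF and at 1552 and 1444 without, a log2 change of 0.88 (SE 0.16, adjusted p = 0.000429). H3c13 stood at 1875 and 1700 with LIF and at 3077 and 3189 without, a change of 0.81 (SE 0.20, adjusted p = 0.00403). Both genes were separated between the media in this line and kept their call without each of the 4 libraries. The smaller rises were 0.70 for Hist1h2an (adjusted p = 0.0433), 0.59 for Hist1h2bp (0.0198) and 0.40 for H2bc7 (0.0246). Without single libraries these were lost, Hist1h2an whichever of the 4 was left out (adjusted p up to 0.13), Hist1h2bp without the first with LIF or either without LIF (up to 0.14), and H2bc7 without the first with LIF or the second without (up to 0.2). The median over the 53 was 0.18, with 43 positive, and over the H2B genes 0.32, with 15 of 16 positive. It was 0.14 over the 53 without the first library without LIF (5 rises) and 0.32 without the second (10 rises), and the median over the H2A genes was -0.17 without the first and 0.70 without the second. With the block within the line 12 members rose and none fell (52.1% of all genes called), H2bc4, H2bc9, H2bc13, H3c6 and H4c9 beside the 7 named.

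In Q418R, 1 member rose and 2 fell, with 23% of all genes higher and 23.5% lower (46.5% called). The one that rose was H2ac1, described with its neighbour further on. H3c7, an H3 gene, stood at 3950 and 3489 with LIF and at 2029 and 2161 without, a log2 change of -0.82 (SE 0.28, adjusted p = 0.027). H3c2 fell by 0.53 on the log2 scale (adjusted p = 0.0316), from 2759 and 2361 to 1872 and 1676. Neither gene overlapped between media, yet H3c7 lost its call whichever of the 4 libraries was left out (adjusted p up to 0.128) and H3c2 without 3 of them (up to 0.185). The median over the members was -0.19, with 12 of 53 positive; on the TPM scale, where all genes shift by 0.02 to 0.19 over the comparisons, it was -0.04 and the calls were 3 higher and 0 lower. With the block within the line 11 members were called (54% of all genes): H2ac1 and H3c13 rose, and 9 fell, of which 6 were H3 genes (H3c2, H3c3, H3c4, H3c7, H3c8 and H3c11) and the others H2ac7, H2bc3 and H2bc8.

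**Figure D2:**
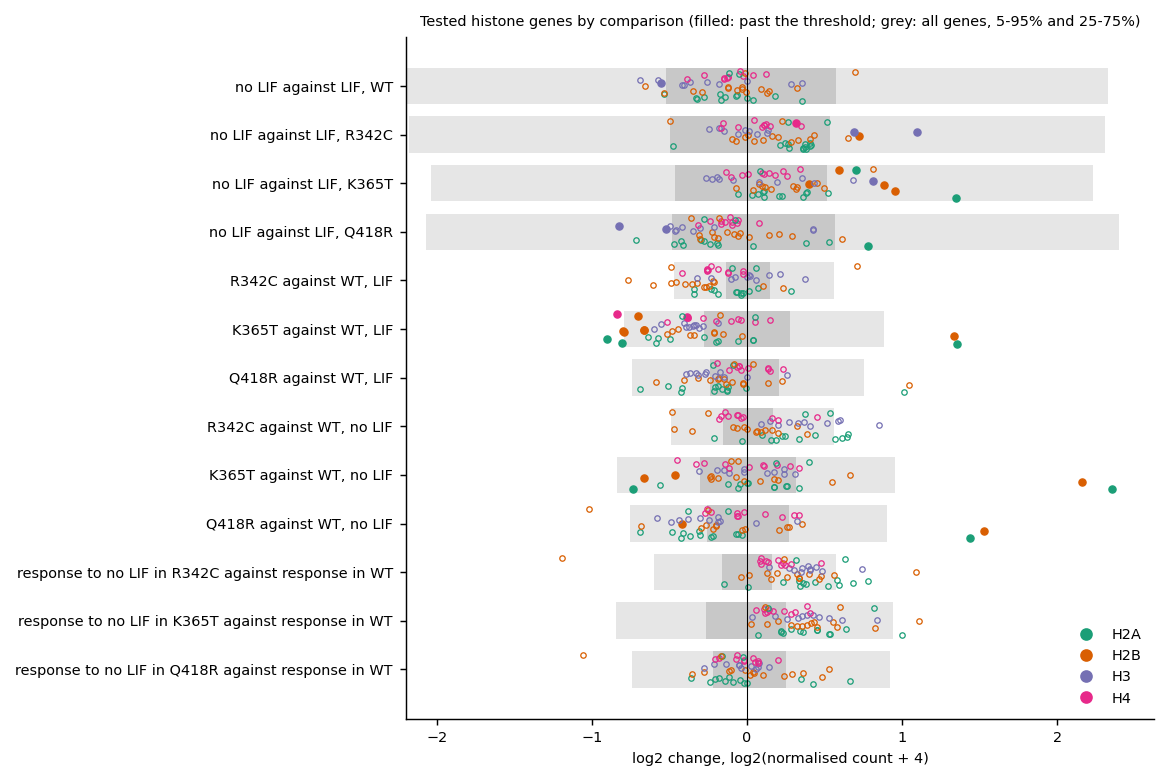
Log2 change of the 53 tested members in each of 13 comparisons; each point is a gene, filled where past the threshold, and the grey bars span 5 to 95% and 25 to 75% of all 17757 genes. The members lie inside the spread of all genes for the loss of LIF, and most lie below 0 for K365T against WT with LIF (46 of 53).

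The comparison of lines with the most calls was that of K365T with WT under LIF. There 9 of 53 members were lower in K365T and 2 higher, with 4.66% of all genes lower and 6.42% higher (11.1% called). The 9 were the H2B genes H2bc3, H2bc6, H2bc7, H2bc8 and Hist1h2bp, the H2A genes H2ac10 and H2ac21, and the H4 genes Hist1h4n and H4c9. The 2 higher genes were H2ac1 and H2bc1. Of the 53, 46 were below 0, with a median of -0.34, against a median of -0.02 over all genes; the class medians were -0.28 in H2A, -0.41 in H2B, -0.35 in H3 (all 11 tested genes below 0) and -0.20 in H4. The median over the 53 lay between -0.42 and -0.27 when single libraries were left out. Among the other genes, the 765 with a GC content of at least 60% had a median of -0.14 in this comparison.

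H2bc8 stood at 7828 and 7670 normalised counts in WT and at 5443 and 4385 in K365T, a log2 difference of -0.67 (adjusted p = 0.00286). Hist1h4n, an H4 gene, stood at 3075 and 3400 in WT and at 2190 and 1486 in K365T, a difference of -0.84 (adjusted p = 0.00404). Both pairs of groups were apart, and both calls held without each of the 4 libraries and under every other setting tried. Of Hist1h4n, 77.2% of the 150-base stretches occur also in Hist1h4m and in no other annotated gene, so its reads may include those of that copy.

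H2bc6, whose transcript model is long, stood at 1553 and 1287 in WT and at 916 and 719 in K365T, a difference of -0.80 (adjusted p = 0.00668). Without the first WT library its adjusted p was 0.0762, and without the second K365T library 0.0813. H2bc7 differed by -0.66 (adjusted p = 0.00685), lost without the first library of either line. H2bc3 stood at 4576 and 4064 in WT and at 2972 and 2079 in K365T (-0.79, adjusted p = 0.0224), and lost its call without either WT library or the second of K365T. The differences of H2ac21 (-0.90), H2ac10 (-0.81), Hist1h2bp (-0.71) and H4c9 (-0.39) had adjusted p-values of 0.0437, 0.0386, 0.0283 and 0.0495. H2ac21, H2ac10 and H4c9 lost the call whichever of the 4 libraries was left out, and Hist1h2bp without the first WT or either K365T library. The call count for the comparison was 2 without the first WT library, 6 without the second, and 5 without either K365T library. It split 2 higher and 4 lower on TPM, 2 and 7 when the libraries were scaled without structural RNAs, histone and mitochondrial genes, and 2 and 7 with edgeR on recovered reads.

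Without LIF the difference between K365T and WT was small over the set. There 2 members were higher and 3 lower, with 7.38% of all genes higher and 7.33% lower (14.7% called), and 26 of 53 were positive with a median of -0.00 (0.17 on TPM, 0.07 with the scaling named above, 0.04 with edgeR). The lower genes were H2ac10 (-0.74, adjusted p = 0.0474), H2bc3 (-0.67, adjusted p = 0.0407) and H2bc8 (-0.46, adjusted p = 0.0175). H2bc8 stood at 6970 and 7271 in WT and at 5423 and 4916 in K365T. None of the 3 held on the TPM scale, where the split was 2 higher and 0 lower, and with the other scaling it was 2 and 1. The median was -0.08 without the first K365T library without LIF and 0.11 without the second. Without the second WT library or the second K365T library all 3 lost their call, as did H2ac10 and H2bc3 without the first WT library.

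In R342C and Q418R few core histone genes were called against WT. With LIF limma called no member in either line, with 0.417% of all genes called in R342C and 4.25% in Q418R. At an unadjusted p under 0.05 there were 8 of 53 members in R342C and 5 of 53 in Q418R, against 5.66% and 17.4% of all genes. With edgeR none was called in either line, and with DESeq2 none in R342C and 1 in Q418R. The medians were -0.19 in R342C, with 14 of 53 positive, and -0.13 in Q418R, with 11 positive. By class the R342C medians were -0.07 in H2A, -0.30 in H2B, 0.01 in H3 and -0.23 in H4. Those of Q418R were -0.19, -0.12, -0.26 and -0.04 in the same order. Without LIF, R342C again had no call with limma, edgeR or DESeq2 (4 members at an unadjusted p under 0.05, against 5.67% of all genes), against 0.479% of all genes with limma, and a median of 0.16 that was 0.42 without its first library, when 2 members were called, and -0.06 without its second, with 20 of 53 positive. Q418R without LIF had 2 members higher (H2ac1 and H2bc1) and 1 lower, with 3.02% of all genes higher and 3.13% lower (6.15% called). The lower one was H2bc8 at 5102 and 5523 against 6970 and 7271 (-0.42, adjusted p = 0.0444), a call lost whichever of the 4 libraries was left out. H2bc8 was thus below WT in K365T in both media and in Q418R without LIF; these comparisons share the WT libraries. The median of the Q418R comparison was -0.20, and -0.01 on TPM, where the split was 2 and 0.

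The 2 members called higher in K365T than in WT, in both media, are the testis forms. H2ac1 (chr13:23934437-23934913) encodes TH2A and H2bc1 (chr13:23933725-23934156) encodes TH2B, variants best known from male germ cells and also described in oocytes. They are a divergent pair at the outer end of the Hist1 cluster, and H2ac1 shares no 150-base stretch with another annotated gene, H2bc1 11.9%. The gap between their annotated starts is 280 bases, the longest of the 13 divergent H2A and H2B pairs (163 to 280). Because both genes moved together, 250 bases of this gap are shown from the RefSeq promoter table on build mm10, chr13:23934187-23934436, plus strand, ending at the base before the start of H2ac1. Capitals mark matches to the TATA box (searched as TATAAA). They also mark the CCAAT box, searched by its name, and the octamer to which Oct factors bind (searched as ATTTGCAT). All were read on both strands, and none of the marked matches overlap.

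H2ac1 and H2bc1 gap: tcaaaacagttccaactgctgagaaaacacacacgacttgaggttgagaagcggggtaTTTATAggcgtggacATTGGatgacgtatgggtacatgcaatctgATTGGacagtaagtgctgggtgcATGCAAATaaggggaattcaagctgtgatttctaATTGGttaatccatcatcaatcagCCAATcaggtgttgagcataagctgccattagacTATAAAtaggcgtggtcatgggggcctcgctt

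The window held a TATA box for each direction, 4 CCAAT boxes and 1 octamer between them, and its GC content was 44.8%. Over windows of 300 bases around the start (250 before and 50 after), the octamer was found in 28.3% of 46 promoters of members and in 1.74% of the 32851 promoters of the table. It was found in 42.9% of H2A and 53.8% of H2B promoters and in none of the H3 and H4 promoters. The windows of a divergent H2A and H2B pair overlap (gaps of 163 to 280 bases). The same match can thus count for both genes, and these promoters are not all separate. CCAAT stood in 87% of member promoters against 37.4% of all, and TATAAA in 56.5% against 13.6%. CCAAT was in every H2A, H2B and H3 promoter and in 33.3% of H4 promoters. A match is a description of letters and not a bound site.

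H2ac1 stood at 51.4 and 74.6 normalised counts in WT with LIF and at 74.7 and 86.4 without. R342C was alike in level, at 58.2 and 62.4 with LIF and 78.3 and 78.5 without. K365T stood at 220 and 123 with LIF and at 438 and 415 without. Q418R stood at 120 and 138 with LIF and at 288 and 175 without. All 8 K365T and Q418R libraries lay above all 8 WT and R342C libraries for H2ac1, across media.

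H2bc1 showed the same order at lower levels. WT had 30.4 and 40.0 with LIF and 40.2 and 37.0 without, and R342C 42.5 and 41.0 with LIF and 47.4 and 56.2 without. K365T had 122 and 72.9 with LIF and 190 and 184 without. Q418R had 89.4 and 64.7 with LIF and 164 and 85.6 without. The K365T and Q418R libraries were again all above those of WT and R342C.

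Without LIF, H2ac1 was higher in K365T than in WT by a log2 of 2.35 (SE 0.30, adjusted p = 0.000404) and H2bc1 by 2.16 (SE 0.33, adjusted p = 0.00114). These were the calls of the study's histone genes with the largest fold, and both held in all 12 other settings. With LIF the differences were 1.36 (adjusted p = 0.0102) and 1.34 (adjusted p = 0.0175). H2ac1 lost that call without the first WT (0.104) or the first K365T library (0.102), and H2bc1 also without the second WT library (adjusted p up to 0.148). In Q418R without LIF they were 1.44 (adjusted p = 0.0113) and 1.53 (adjusted p = 0.014), lost for both genes without the second WT or the first Q418R library (adjusted p up to 0.144 and 0.175). Q418R with LIF missed the threshold, at 1.01 (adjusted p = 0.0739) and 1.04 (adjusted p = 0.0951). R342C differed from WT by -0.04 and 0.23 with LIF and by -0.03 and 0.39 without, none of them called.

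The loss of LIF raised H2ac1 in K365T by 1.35 (SE 0.30, adjusted p = 0.00181), a call kept without each of the 4 libraries, and H2bc1 by 0.96 (SE 0.33, adjusted p = 0.0271). The latter call was lost without the second library with LIF and without either library without LIF (adjusted p up to 0.243). In Q418R H2ac1 rose by 0.78 (adjusted p = 0.0423), a call lost without 3 of the 4 libraries (adjusted p up to 0.34). The tested difference from the WT response was 1.00 for H2ac1 in K365T (adjusted p = 0.363) and 0.82 for H2bc1 (adjusted p = 0.547), so these responses were not shown to differ from that of WT.

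H1f6 encodes the testis linker histone H1t and lies in the same cluster. It stood at 87.2 and 111 in WT with LIF and at 247 and 195 without, and it rose without LIF in all 4 lines: by 2.09 in K365T (adjusted p = 0.000137), 1.52 in R342C (0.00169), 1.28 in Q418R (0.00551) and 1.12 in WT (0.0117). Against WT none of the 3 lines was called for H1f6 in either medium, with 0.69 in K365T without LIF as the largest difference (adjusted p = 0.186). The other male germ cell markers were near 0: Prm1 was at 0 in 11 of 16 libraries, Prm2 and Tnp1 in 15 each, and Tnp2 and Acrv1 in all 16. Apart from H1f6 none of these markers reached the level of testing, and the summed level of the list, nearly all of it H1f6, was 52.3 to 128 with LIF and 195 to 370 without.

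**Figure D3:**
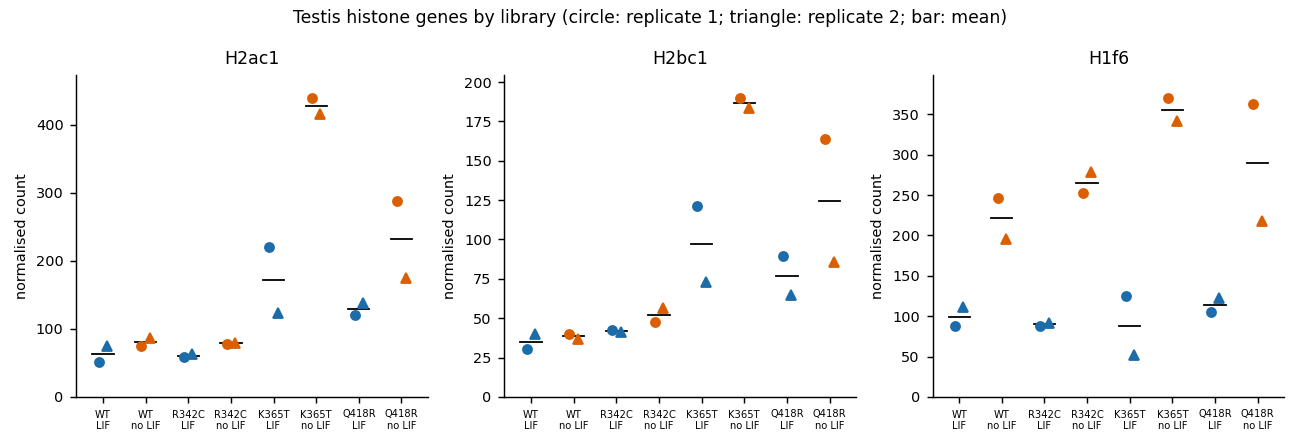
Normalised counts of H2ac1, H2bc1 and H1f6 in each of the 16 libraries (circle replicate 1, triangle replicate 2, bar the mean) by line and medium. H2ac1 and H2bc1 stand highest in K365T, at 438 and 190 in its first library without LIF, and at most 86.4 and 56.2 in WT and R342C; H1f6 is higher without LIF in every line.

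The small Hist2 cluster of chromosome 3 holds 8 tested members. H3c13 is the most abundant of its H3 genes and is described above. H4c14, an H4 gene, ranged over the 16 libraries from 1507 to 2606 normalised counts, and H2bc18 from 662 to 1627. H2ac20 ranged from 545 to 1502, its highest value in the second R342C library without LIF. H2ac21 ranged from 52.3 to 176, H2ac19 from 20.9 to 61.6, H3c15 from 5.53 to 28.7 and H2bc21 from 3.15 to 20.7. After loss of LIF the median log2 change of these 8 was 0.41 in R342C (8 of 8 positive), 0.34 in Q418R (6 of 8), 0.25 in K365T (7 of 8) and 0.01 in WT (4 of 8). Without the second R342C library without LIF the median in R342C was 0.25 (6 of 8). The 44 tested Hist1 genes had medians of 0.12, -0.22, 0.18 and -0.13 in the same order of lines. H3c13 and H3c15 in R342C and H3c13 in K365T were the calls among them without the block. H3c13 shares 73.8% of its 150-base stretches with other annotated genes, and H3c15 59.4%.

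Summed over each class, the 2 libraries of some groups lay far apart. H3 genes summed to 23910 and 41495 normalised counts in the 2 R342C libraries without LIF, and H2A genes to 8856 and 14997. In K365T without LIF the H2A sum was 13144 and 7870 and the H4 sum 43457 and 51378, so the second library was lower in one class and higher in another. The WT libraries with LIF were closer, at 29200 and 31172 for H3. Against these, K365T with LIF summed to 20133 ± 1969 in H2B (SD, n = 2) and WT to 29039 ± 2402, and in H3 to 23337 ± 2007 against 30186 ± 1394. Both pairs of groups were apart, as the plot of class sums shows. With LIF the H2B sums of R342C (24378 and 22064) and Q418R (25439 and 24214) also lay below those of WT (30738 and 27341). In H3, Q418R with LIF (26855 and 23236) lay below WT, while R342C (28198 and 33608) overlapped it. These comparisons share the WT libraries.

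**Figure D4:**
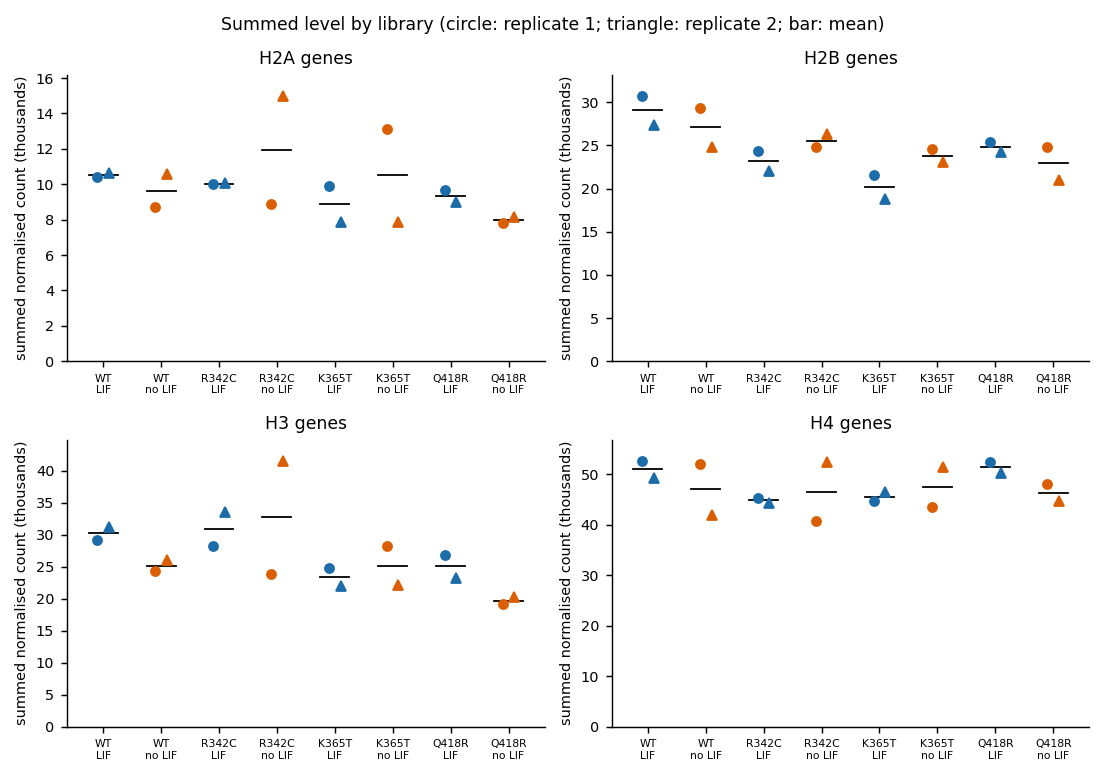
Summed normalised counts (axis in units of 1000) of the H2A, H2B, H3 and H4 genes in each library (circle replicate 1, triangle replicate 2, bar the mean) by line and medium. The second R342C library without LIF is highest in H2A and H3, at 14997 and 41495, and the K365T libraries with LIF are lowest of the LIF libraries in H2B.

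The spread between replicates was class by class. In R342C without LIF the second library was above the first in all 15 H2A genes (median log2 difference 0.59), all 11 H3 genes (0.67) and all 11 H4 genes (0.33), while H2B genes differed by 0.17 with 10 of 16 higher. In K365T without LIF 14 of 15 H2A genes were lower in the second library and all 11 H4 genes were higher (0.21). In WT without LIF the H2A genes were higher (median 0.27) and all 11 H4 genes lower (-0.24) in the second library. With LIF the WT, R342C and Q418R replicates differed by at most 0.22 in the median of any class, and the K365T replicates by -0.47 in H2A. As measured beside it, the GC content was 64.3% in the median H2A gene, 60.2% in H3, 56.2% in H4, 55.9% in H2B and 49.5% in other genes. The 765 other genes with a GC content of at least 60% differed between replicates by medians of -0.12 to 0.20. Without LIF they were 0.03 in WT, 0.13 in R342C, -0.09 in K365T and 0.20 in Q418R. The H2A medians there were 0.27, 0.59, -0.82 and -0.00. With LIF they were 0.02, 0.14, -0.12 and 0.11 in the same order, beside H2A medians of 0.02, -0.02, -0.47 and -0.15. Against WT with LIF the 765 genes had medians of -0.06 in R342C, -0.14 in K365T and -0.20 in Q418R. The medians of the tested members there were -0.19, -0.34 and -0.13. The structural RNAs without poly(A) tails took from 0.717% (R342C without LIF, second library) to 1.32% (WT without LIF, second library) of the normalised counts. The part of GC content and of these RNAs in the histone differences was not tested.

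**Figure D5:**
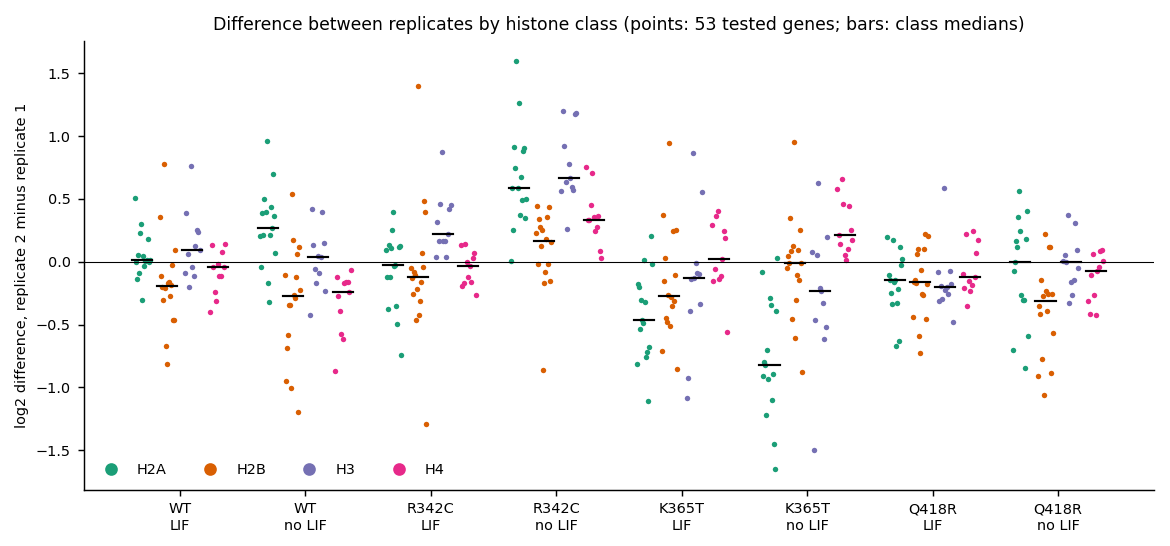
Log2 difference between the 2 libraries of each group (second minus first) for the tested members of each class; each point is a gene and the bar is the class median. The H2A and H3 genes lie above 0 in R342C without LIF (medians 0.59 and 0.67) and most H2A genes lie below 0 in K365T without LIF (-0.82).

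The difference between the responses of a line and WT was tested directly. No member was called in any line by limma, edgeR or DESeq2 on group means, with 0.659% of all genes called by limma in K365T, 0.141% in Q418R and 0% in R342C. At an unadjusted p under 0.05 there were 7 members in K365T, 0 in Q418R and 1 in R342C, against 11.7%, 8.41% and 1.62% of all genes. In K365T all 53 members were positive, with a median of 0.36 and a range of 0.03 to 1.11, against 49.4% positive over all genes. Without the first K365T library without LIF 42 of 53 were positive (median 0.24), and without the second 47 (median 0.50). With the replicate block within lines 1 member was called in K365T, H2bc9 (1.11, adjusted p = 0.0335), against 2.69% of all genes, and none in the other lines (0.85% of all genes in Q418R and 0% in R342C). The K365T response comparison uses the same 8 libraries as the comparisons above, in which the members were below WT with LIF and near WT without. In R342C 50 of 53 were positive, with a median of 0.33. That median was 0.58 without the first R342C library without LIF and 0.07 without the second, when 39 of 53 were positive. Q418R had 22 of 53 positive and a median of -0.02, which was 0.10 on TPM and 0.03 with the other scaling.

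The linker histones of the same clusters, H1, moved apart from each other. Of 6 tested genes in WT, H1f6 rose, while H1f1 (-0.63, adjusted p = 0.0329) and H1f2 (-0.52, adjusted p = 0.0189) fell without LIF. Of all genes, 48.8% were called there. H1f2, a main somatic linker histone, fell in R342C, K365T and Q418R as well (-0.43, -0.71 and -0.77). H1f4 rose in R342C (0.38) and K365T (0.62, adjusted p = 0.00374). H1f3 was lower in K365T than in WT in both media (-0.49 and -0.47, adjusted p = 0.0378 and 0.0382). In the second R342C library without LIF all 6 genes were above the first, with a median of 0.33.

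The replacement variants, whose mRNAs are mostly polyadenylated and not limited to S phase, had 11 tested genes. Of these, 2 rose and 5 fell in WT without LIF, with 23.8% of all genes higher and 24.9% lower. The fall of Macroh2a1, which encodes a variant found on silenced chromatin, was -1.46 on the log2 scale (adjusted p = 1.2e-05), and H1f0, the linker variant of slowly dividing cells, fell by 1.01 on the log2 scale. H3f3a and H3f3b, which both encode H3.3, went opposite ways (0.80 and -0.45). K365T and R342C each had 2 higher and 4 lower, and Q418R 1 and 2, Macroh2a1 falling in each. Of all genes, 44.7%, 47.2% and 46.5% were called in these lines. In K365T, H3f3b was above WT with LIF (0.56, adjusted p = 0.0107) and without (0.63, adjusted p = 0.00534). Set side by side, the H3 members summed to 6.39 to 8.22 times the H3f3a and H3f3b sum in TPM in WT, 4.74 to 6.61 in Q418R, 3.64 to 5.97 in K365T and 7.20 to 11.9 in R342C, where the highest was the second library without LIF and the other 3 reached 8.44. K365T and Q418R also had Cenpa, the centromeric H3, below WT without LIF (-0.40 and -0.97, adjusted p = 0.0484 and 0.00103). In Q418R Cenpa was below WT with LIF too (-0.72, adjusted p = 0.00682). H1f0 was above WT without LIF in K365T (1.01, adjusted p = 0.00192) and Q418R (0.87, adjusted p = 0.00735).

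Of 21 genes for 3′ end processing, translation and decay of histone mRNA, 1 rose and 2 fell in WT without LIF, 1 and 3 in Q418R, 2 and 1 in K365T and 3 and 1 in R342C. Of all genes, 48.8% were called in WT, 46.5% in Q418R, 44.7% in K365T and 47.2% in R342C. Smaller shares of this list and of the transcription list below were called in each line. Snrpf, a shared Sm protein, rose in each line (0.43 to 0.56), and Tut7, a uridylyl transferase, fell in each (-0.54 to -0.36). Slbp, which encodes the stem-loop binding protein, was not called in any comparison; its group means were 1466 to 2030 normalised counts. Snrpe was above WT in K365T in both media (0.56 and 0.43, adjusted p = 0.0126 and 0.036). Of 15 genes for histone gene transcription, 1 rose and 2 fell in WT, 0 and 3 in Q418R, 1 and 3 in K365T and 1 and 2 in R342C. Coil, which encodes the Cajal body protein coilin, and Cdk2 fell without LIF in every line (Coil -0.92 to -0.48). Npat rose in WT (0.40, adjusted p = 0.0111), and Ccne1, which encodes cyclin E1, in R342C (0.85, adjusted p = 0.0064) and K365T (0.64, adjusted p = 0.0324). E2f1, a regulator of S phase genes, fell in K365T (-0.40, adjusted p = 0.0113) and Q418R (-0.34, adjusted p = 0.0271). Pou2f1, which encodes the octamer-binding factor Oct1, was above WT in K365T without LIF (0.64, adjusted p = 0.00392), beside Coil (-0.38) and Cdk2 (-0.33), which were below it.

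Of 23 chaperone and import genes, 4 rose and 4 fell in WT without LIF, 2 and 4 in Q418R, 3 and 2 in K365T and 5 and 3 in R342C. Of all genes, 44.7% to 48.8% were called in the 4 lines. Smaller shares were called in this list and in the S phase and mitosis lists below. Ubn1, a subunit of the HIRA complex that deposits H3.3, rose in every line (0.86 to 1.28), as did Nasp, a chaperone of soluble H3 and H4 (0.51 to 1.01). In K365T without LIF both were below WT (Ubn1 -0.56 and Nasp -0.54, adjusted p = 0.0483 and 0.0226). Of 35 S phase genes, 4 rose and 8 fell in WT, 2 and 11 in Q418R, 1 and 10 in K365T and 3 and 6 in R342C. The largest falls were those of Rrm2 and Tk1, which make deoxynucleotides, and Uhrf1, which maintains DNA methylation (-1.60, -1.30 and -1.21 in WT). In K365T with LIF, 6 of the 35 S phase genes were above WT and none below, against 6.42% of all genes above and 4.66% below. Of the core histone genes, 9 of 53 were called below WT there and 2 above. The S phase genes above WT included the helicase genes Mcm6 (0.74, adjusted p = 0.00277), Mcm5 (0.59) and Mcm3 (0.59) and the loading factor Cdc6 (0.87, adjusted p = 0.0426). How the 2 sets relate was not tested. Of 19 mitosis genes, 2 were below WT in K365T with LIF (Mki67 -0.46 and Cdc20 -0.44) and none above. After loss of LIF 1 rose and 4 fell in WT, 0 and 3 in Q418R, 0 and 4 in K365T and 1 and 3 in R342C, with Birc5, a survival and division gene, falling in each line.

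Of the 60 members, 22 share over 50% of their 150-base stretches with other annotated genes and 9 share none, with a median of 27.4%. Such copies make single-gene counts less certain, more so in H2A, where 11 of the 22 lie. Class sums would be lowered too if reads that match several copies were dropped, and their treatment is not given. The genes whose transcript model runs at least 300 bases past the stem-loop and the others had like medians in K365T against WT with LIF (-0.37 over 12 and -0.38 over 22 genes).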

How the data were processed

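The authors deposited normalised counts (a signal value per gene) and TPM for 16 mouse libraries of stranded total RNA, sequenced as 150 base pairs at both ends. The submitters' processing notes name Trim Galore, STAR, DESeq2 and the build mm10; the counting tool, annotation and treatment of multiply mapped reads are not given in the sources used here. Values of the deposited normalised counts are whole multiples of 1 step per library, from which reads were recovered (100% of values whole within 0.05 in each library). On these reads edgeR called 72 to 8661 genes in comparisons of 2 groups.

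Groups are line and medium, from the labels. limma 3.58.1 in R 4.3.3 (trend) was fitted to log2(normalised count + 4) of the 17757 of 55291 genes with a mean of at least 10, over 8 group means and 16 libraries (8 residual degrees of freedom), in 13 contrasts with Benjamini-Hochberg adjustment. Its code was tested on simulated data. Named genes were the 3 highest of each class, up to 4 rises and 4 falls per contrast, the testis pair and the Hist2 members; of other lists, up to 4 called genes. H2ac20's highest library and the class of genes with long transcript models were singled out after their values were seen. Members and lists were chosen with earlier results of these data known. Sequences come from GENCODE M21 transcripts and the RefSeq promoter table (GRCm38.p6), which matched 45 members; positions are from RefSeq or GENCODE M21. Alternatives were pseudocount 1, no filter, a mean of at least 50, TPM (log2(TPM + 0.1)), scaling without structural RNAs, members and mitochondrial genes, edgeR 4.0.16 and DESeq2 1.42.0 on recovered reads, a replicate block over all libraries and leaving out each library. Same-numbered libraries with and without LIF correlated in their deviations by 0.36 to 0.42 within each of the 4 lines. Over all 28 pairs of groups the values lay between -0.52 and 0.54. The numbers may thus pair the media within a line, but the labels do not say so. A replicate block within each line (4 residual degrees of freedom) was added after the data were seen, and the calls it adds rest on this assumed pairing.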

Additional observations from a re-analysis of the deposited data

How the results depend on the processing

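No direction of a called gene was reversed. Of 34 calls of a member in a comparison, 26 were lost when some single library was left out, 13 on TPM, 13 without the filter, 7 with edgeR, 6 with the other scaling, 2 with pseudocount 1, 2 with the replicate block over all libraries, 1 with DESeq2, and none of 33 with a minimum mean of 50. Counts of called members moved as follows. Without the filter they were 0 in WT, 2 in R342C and 0 in Q418R for the loss of LIF, and 3 for K365T against WT without LIF. On TPM they were 6 for K365T and 1 for Q418R against WT with LIF, and 2 for K365T against WT without LIF. That last count was 3 with the other scaling and 3 with edgeR. With DESeq2 there were 2 for the loss of LIF in WT and 1 for Q418R against WT with LIF. Replicate numbers were not taken to pair libraries across lines: same-numbered deviations correlated between -0.52 and 0.54 (median 0.07) over all 28 pairs of groups. The replicate block over all libraries gave 2 calls for the loss of LIF in WT. The replicate block within each line, added after the data were seen, gave 9 calls for the loss of LIF in WT, 7 in R342C, 12 in K365T and 11 in Q418R, and 1 for the difference in response in K365T; all 15 calls of members in these comparisons were kept. Over all genes, Q418R against WT had 754 calls with LIF (254 on TPM, 1183 with DESeq2) and 1092 without (610 and 1658), and R342C 74 and 85 (149 and 139 with DESeq2). The difference in response had 117 in K365T (22 without the filter, 28 on TPM, 447 with DESeq2, 477 with the block within lines), 25 in Q418R (0, 0 and 162; 12 with the other scaling, 8 with the block over all libraries and 151 within lines) and 0 in R342C (2 with DESeq2).

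Leaving out each library gave 0 to 4 calls for the loss of LIF in WT, 2 to 5 in R342C, 5 to 10 in K365T and 0 to 2 in Q418R. Against WT with LIF the ranges were 0 to 0 in R342C, 2 to 6 in K365T and 0 to 0 in Q418R. Without LIF they were 0 to 2, 2 to 5 and 0 to 2. For the difference in response they were 0 to 0 in R342C, 0 to 1 in K365T and 0 to 0 in Q418R. The count of 4 in WT came without its first library without LIF and counts of 0 without any other WT library; in R342C 2 came without its first library with LIF, and in Q418R 0 without its first library without LIF. Q418R against WT without LIF gave 0 without the second WT or first Q418R library, and 1 difference in response was called in K365T without its first library with LIF. The cause was not tested. Depth limits the low tested members H2bc21, Hist1h2bq and H3c15, with means of 12.5, 15.2 and 16.4 normalised counts.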
